A study of Mus musculus with 16 samples.

Results

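Imprinted genes are expressed mainly from the copy inherited from 1 parent, and 10 of them that act on growth were followed here in fat of lean and obese mice: Mest, Peg3, Igf2, H19, Dlk1, Zdbf2, Nnat, Cdkn1c, Plagl1 and Grb10. The members were chosen by name, as every entry of the expression table whose RefSeq transcript identifier belongs to 1 of these symbols. This gave 61 transcript entries (rows) of 130343, and 10 genes of the 35569 to which a symbol could be given. RNA was sequenced from 2 fat depots of 8 male wild-type C57BL/6J mice: subcutaneous adipose tissue (SAT) from the groin, the left and right pads of a mouse combined, and visceral adipose tissue (VAT) from the mesentery. The lean mice were kept on a normal laboratory diet, and the obese mice received a high-fat diet with 42% of its energy from fat and 0.2% cholesterol, both from 10 weeks of age and for 12 to 14 months. There was 1 library for each depot of a mouse, so that the 16 libraries form 4 groups of 4. All mice were of 1 sex and 1 inbred strain, so the parental copies of a gene cannot be told apart in these libraries, and whether expression was still imprinted was not measured.

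In the textbook account, a mark of DNA methylation set in the egg or the sperm silences 1 parental copy of an imprinted gene, so that the dose of the gene is set by a single copy. Many genes expressed from the father's copy favour growth, and many expressed from the mother's copy restrain it. In fat, Mest is known as a marker of expanding tissue, Dlk1 (also called Pref-1) as a surface protein of preadipocytes that holds back their maturation, and Grb10 as an inhibitor of signalling from the insulin and IGF1 receptors.

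Only 3 of the 10 genes, Nnat, Plagl1 and Grb10, passed the filter for testing, a value above 1 CPM (counts per 1000000 counts of the library) in at least 3 of 16 libraries. Nnat held 77.1% of all counts on the members, Plagl1 21.4% and Grb10 1.15%. Mest, Peg3, Igf2 and H19 had counts but did not pass, and Dlk1, Zdbf2 and Cdkn1c were at 0 in every library. By rows, 11 of 61 had counts and 4 passed. Nnat was the member with the clearest differences: its level in SAT was 2.33-fold higher in lean than in obese mice, in VAT the diet groups overlapped, and the order of the depots was opposite in lean and obese mice, although the calls within each diet were lost in 6 and 5 of 16 alternative fits. Plagl1 fell in VAT of obese mice in a test that was lost in many alternative fits. Grb10 passed no test.

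The 250 bases before the start sites of Nnat and Plagl1, the members whose level differed in a test, are shown here with every CG, the dinucleotide that carries DNA methylation in mammals, in capitals. They are RefSeq sequences of build GRCm38.p6, on the plus strand, chr2:157559828-157560077 for Nnat and chr10:13090582-13090831 for Plagl1.
Nnat: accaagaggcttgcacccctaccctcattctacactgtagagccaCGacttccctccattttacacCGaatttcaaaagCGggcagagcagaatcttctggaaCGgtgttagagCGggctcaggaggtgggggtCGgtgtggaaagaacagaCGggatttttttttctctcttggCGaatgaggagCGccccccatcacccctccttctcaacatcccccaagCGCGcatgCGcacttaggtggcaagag
Plagl1: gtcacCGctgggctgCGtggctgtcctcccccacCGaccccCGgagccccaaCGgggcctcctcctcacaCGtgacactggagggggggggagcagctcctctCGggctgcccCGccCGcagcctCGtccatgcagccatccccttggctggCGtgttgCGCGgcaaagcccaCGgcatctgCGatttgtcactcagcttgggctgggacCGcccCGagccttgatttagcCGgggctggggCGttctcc
The Nnat window holds 12 CG dinucleotides, more than 66.5% of 32851 mouse promoter windows of the same length, and the Plagl1 window 19, more than 80.3%. The median over all windows was 6. Among 15 windows listed for 8 of the members (none for H19 and Cdkn1c), 13 held more CG than that median. The letters GGGGCCCC, the motif that Plagl1 protein is known to bind and which reads the same on both strands, are in 1 of the 15 windows, that of Peg3, and in 0.889% of all windows. Methylation was not measured in these samples, and these windows are printed as reference sequence alone.

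The total count of a library lay between 4604460 and 11897722 for lean SAT, 10828758 and 16614407 for obese SAT, 1256082 and 15802634 for lean VAT, and 2247737 and 11615347 for obese VAT. A count of 0, taken as up to 3 counts, allows a level of up to 0.179 to 2.00 CPM, depending on the library (on the TMM scale), which covers counting error only. The Scd1 transcript alone took 23.7 to 25.7% of the counts in SAT of obese mice, so CPM was scaled throughout with TMM factors (trimmed mean of M values, which bring libraries of unlike composition to 1 scale). Without these factors the median change of all genes moved by -0.20 for the diet in SAT and by 0.36 between the depots of obese mice (log2). Fat markers were present: 10 adipocyte markers had a summed level between 15654 and 58711 CPM in every library. The summed level of 10 mesothelium markers was 0.583 to 1.69 CPM in SAT and 267 to 656 CPM in VAT. Pecam1, a defining endothelial marker, was at 0 in all libraries, while 7 other endothelial markers were counted.

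**Figure D1:**
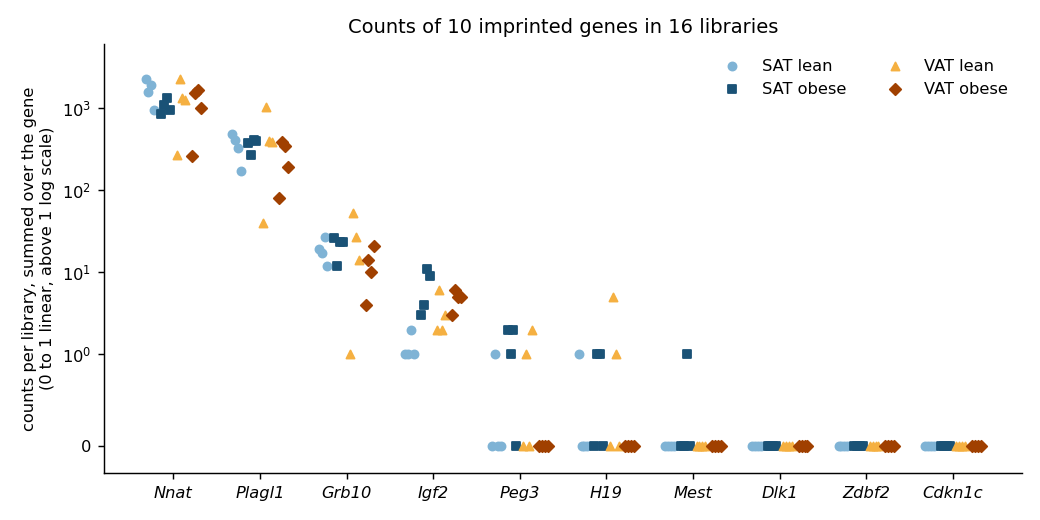
Counts summed per gene in each of 16 libraries, on an axis that is linear from 0 to 1 and logarithmic above; each symbol is a library and the colours and shapes mark the 4 groups. Nnat had 259 to 2269 counts, Plagl1 40 to 1026 and Grb10 1 to 53, Igf2 never exceeded 11, and Dlk1, Zdbf2 and Cdkn1c lie at 0.

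The members at 0 or near it come first, because their counts cannot be read with certainty as low expression. Every member has 2 or more rows in the table, from 2 for H19 to 12 for Cdkn1c. Protein-coding genes with 1 row held 88.7% of the counts on protein-coding genes, and genes with 6 or more rows 0.929%. Genes at 0 were more frequent among those with 1 row (34.8%) than among those with 6 or more (20.3%), and 44.0% and 31.8% passed the filter. Gapdh, a glycolytic enzyme abundant in nearly every cell, has 2 rows and only 69 counts in all 16 libraries, and Ywhaz, with 6 rows, has 72, whereas Actb, with 1 row, has 598050. These 3 genes were named after their values were seen. How reads that fit several transcripts were counted is not given in the sources used here. A low count of a member gives the reads counted on its rows, and how far it reflects the level of the gene was not tested.

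Mest (mesoderm specific transcript, an enzyme-like protein of the endoplasmic reticulum; chr6:30723546-30752058 on the plus strand of GRCm39) had 1 count in the whole series, in SAT of obese mouse 3. Dlk1 (chr12:109418749-109429262, plus strand) had no count on any of its 8 rows, and Zdbf2 (chr1:63312363-63353735, plus strand), a zinc finger gene, none on its 10 rows. Cdkn1c (chr7:143012069-143014806, minus strand), which encodes p57, an inhibitor of cyclin-dependent kinases, had none on its 12 rows. For these 4 genes nothing can be said about depot or diet.

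Igf2 and H19 are neighbours on chromosome 7 that share control elements, Igf2 (chr7:142204503-142220694, minus strand) encoding a growth factor of the fetus and H19 (chr7:142129262-142133957, minus strand) a long noncoding RNA. Igf2 was counted in all 16 libraries, with 1, 1, 2 and 1 counts in SAT of lean mice, 3, 4, 11 and 9 in SAT of obese mice, 2, 6, 2 and 3 in VAT of lean mice and 3, 6, 5 and 5 in VAT of obese mice. In CPM, the 4 libraries of obese SAT (0.229 to 0.755 CPM) lay above the 4 of lean SAT (0.0833 to 0.214 CPM), and the VAT groups overlapped (0.216 to 1.34 CPM in lean and 0.416 to 1.15 CPM in obese mice). The 2 highest Igf2 levels, 1.34 and 1.15 CPM, came from 2 and 3 counts in the shallowest libraries. On the row that held 47 of the 64 Igf2 counts, the SAT groups overlapped (0 to 0.213 CPM in lean and 0.106 to 0.694 CPM in obese mice). No row of Igf2 passed the filter, and these levels were not tested.

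H19 had 9 counts in all, 5 of them in VAT of lean mouse 2, and none in VAT of obese mice. Peg3 (chr7:6706882-6733468, minus strand), a zinc finger protein expressed from the father's copy, also had 9 counts, 1 in SAT of lean mice, 5 in SAT of obese mice, 3 in VAT of lean mice and 0 in VAT of obese mice. At 3 counts for a count of 0, differences of this size were not detectable.

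Nnat encodes neuronatin, a small membrane protein of the endoplasmic reticulum that is expressed from the father's copy and is known from the developing brain, from insulin-secreting cells and from fat. The gene (chr2:157401879-157404573, plus strand of GRCm39) lies inside Blcap, which is transcribed from the other strand. Blcap had 62 counts in all libraries against 20375 on Nnat. The libraries were directional, but the strand setting of the counting is not given in the sources used here. All counts of Nnat fell on 1 of its 5 rows, NM_010923.

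In SAT of lean mice Nnat stood at 185.5, 222.5, 184.1 and 203.6 CPM (198.9 ± 18.1, SD, n = 4). In SAT of obese mice it stood at 63.9, 114.3, 89.7 and 74.1 CPM (85.5 ± 21.9). Every lean library lay above every obese library, and the highest obese value was well below the lowest lean value. The log2 fold change, obese minus lean, was -1.22 ± 0.17 (SE), with an adjusted p of 9.13e-05 in edgeR's quasi-likelihood test with Benjamini-Hochberg adjustment. On the row NM_010923 alone it was -1.21 ± 0.17 (adjusted p = 7.21e-05, edgeR). The fall was called in all 17 alternative fits, which gave values from -1.42 to -1.12. Of the 3 genes tested here, 1 was called in this comparison, against 11.6% of 12185 features over the whole table, and of the 4 rows tested 1 was called, against 11.0% of 13288.

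In VAT of lean mice Nnat stood at 178.2, 135.5, 143.9 and 135.9 CPM (148.4 ± 20.3, SD, n = 4), and in VAT of obese mice at 98.9, 121.4, 154.2 and 84.1 CPM (114.6 ± 30.5). The groups overlapped, since obese mouse 3 lay above 3 of the 4 lean mice. The log2 fold change was -0.36 ± 0.18 (SE) with an adjusted p of 0.211 (edgeR), and it was called in 0 of 17 alternative fits, including those of DESeq2 and limma voom. The difference between the diet responses, VAT minus SAT, was 0.85 ± 0.18 (log2, SE), with an adjusted p of 0.0129 in the edgeR fit that holds the mouse as a block. It was called in 15 of 16 alternatives, and not in the fit without the block for the mouse (0.86, adjusted p = 0.0913). This comparison called 2.47% of all features as gene sums and 2.17% as rows, and Nnat was the 1 member called of 3 genes and of 4 rows.

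Within each lean mouse Nnat was lower in VAT than in SAT, by -0.06, -0.71, -0.36 and -0.58 (log2 CPM, VAT minus SAT) in mice 1 to 4. Within each obese mouse it was higher in VAT, by 0.63, 0.09, 0.78 and 0.18. The fitted change, VAT against SAT, was -0.44 ± 0.13 in lean mice (adjusted p = 0.0230) and 0.42 ± 0.13 in obese mice (adjusted p = 0.0175, both edgeR with the mouse as a block). The lean depots did not overlap, and the obese depots did. All 8 mesothelium markers tested were higher in VAT in both diets, and their part in these changes was not tested. Of 16 alternatives, 6 lost the call in lean mice and 5 in obese mice. It was lost in both diets with no filter on low counts (-0.41, adjusted p = 0.0529, and 0.38, 0.0539) and with no block for the mouse (-0.43, 0.105, and 0.43, 0.0677), in lean mice without TMM factors (-0.30, 0.133) and in obese mice without the 2 shallowest VAT libraries (0.35, 0.0529). In lean mice it was also lost without mouse 2 (-0.35, adjusted p = 0.146), mouse 3 (-0.47, 0.0556) or mouse 4 (-0.40, 0.0836), and in obese mice without mouse 1 (0.39, 0.0519) or mouse 3 (0.32, 0.107). Nnat was the 1 member called of 3 genes and of 4 rows in each diet, where 15.9% of gene sums and 14.8% of rows were called in lean mice and 31.3% and 29.4% in obese mice. From the highest to the lowest mean level the order was SAT lean, VAT lean, VAT obese and SAT obese. Of these neighbours, the libraries of VAT lean and VAT obese overlapped, and so did those of VAT obese and SAT obese.

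**Figure D2:**
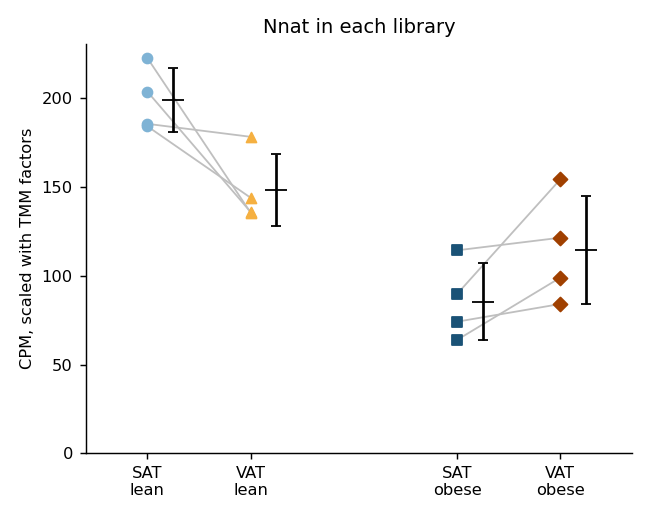
Nnat in each library as CPM scaled with TMM factors; each symbol is a library, grey lines join the depots of 1 mouse, and the black mark and bar give the mean and SD of 4 libraries. SAT of obese mice (63.9 to 114.3 CPM) lies below SAT of lean mice (184.1 to 222.5 CPM), and the lines fall from SAT to VAT in 4 of 4 lean mice and rise in 4 of 4 obese mice.

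Markers of other cells were set beside Nnat in SAT. In bulk tissue, fewer cells that express a gene and less RNA of it per cell cannot be told apart. The summed level of the adipocyte markers overlapped between lean SAT (41700 to 58711 CPM) and obese SAT (37366 to 52943 CPM), with 1 of 10 (Cfd, a serine protease secreted by adipocytes) lower and none higher in the test. The 10 skeletal muscle markers summed to 5.34 to 9.66 CPM in lean SAT and to 2.87 to 4.20 CPM in obese SAT. The fall was that of Tnnc2, a muscle troponin, which dropped by 2.56 on the log2 scale (adjusted p = 4.80e-05, edgeR). The other 9 muscle markers summed to 0.958 to 2.56 CPM in lean and 1.79 to 3.29 CPM in obese SAT, ranges that overlap, with Myh2 and Pvalb higher in the mean in obese SAT. The 10 markers of neurons and glia, the cells in which Nnat is best known, went the other way, at 29.2 to 53.0 CPM in lean and 62.7 to 77.9 CPM in obese SAT, with Elavl3 and Elavl4 at 0. Macrophage markers summed to 1280 to 1773 CPM in lean and 2004 to 2982 CPM in obese SAT, and 5 of 7 tested were higher. The part of any of these cells in the Nnat result was not tested.

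Rgcc, Thra and a transcript without a symbol (XR_004934149) had the pattern most like that of Nnat, with Pearson's r of 0.885, 0.872 and 0.867 over 16 libraries (log2 CPM, 12185 features compared). Rgcc, a regulator of the cell cycle, had a mean of 425.7 CPM in lean SAT, 282.2 in obese SAT, 350.3 in lean VAT and 305.9 in obese VAT. Thra, the thyroid hormone receptor alpha, had 151.0, 99.1, 134.8 and 103.7 CPM in the same order. Both shared the order of the 4 group means with Nnat. The libraries share depot, diet and mouse, so these correlations are a description.

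Plagl1 (chr10:12936248-13007438, plus strand of GRCm39), also called Zac1, encodes a zinc finger transcription factor expressed from the father's copy that is known to arrest the cell cycle and to act on other imprinted genes. Counts fell on 3 of its 4 rows, and 96.7% of them on NM_009538. In SAT of lean mice it stood at 39.6, 56.5, 30.9 and 36.8 CPM (40.9 ± 11.0, SD, n = 4), and in SAT of obese mice at 28.5, 28.1, 27.6 and 31.1 CPM (28.8 ± 1.56). In VAT of lean mice it stood at 26.7, 61.3, 43.1 and 42.4 CPM (43.4 ± 14.1), and in VAT of obese mice at 30.2, 31.0, 31.9 and 15.8 CPM (27.2 ± 7.64). In both depots lean mouse 2 was the highest library, and the ranges of lean and obese mice overlapped.

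The diet change of Plagl1 was -0.73 ± 0.23 in VAT (log2, SE, adjusted p = 0.0370) and -0.50 ± 0.22 in SAT (adjusted p = 0.146, edgeR), and their difference was -0.24 ± 0.26 (adjusted p = 0.724). The call in VAT was made for 1 of 3 genes, against 12.2% of all features, and for 1 of 4 rows (NM_009538, -0.69, adjusted p = 0.0479), against 10.9%. It was lost in 8 of 17 alternatives: with the 8 VAT libraries fitted alone (-0.71, adjusted p = 0.0845), and without any 1 mouse other than lean mouse 1 (-0.79 to -0.49, adjusted p from 0.0542 to 0.193). Without lean mouse 2 the change was -0.49 (0.171) and without obese mouse 4 it was -0.51 (0.193). In SAT the change was called only without TMM factors (-0.71, adjusted p = 0.0265). The row NM_001364643, with 108 counts in all, had changes of -1.34 ± 0.60 in SAT and -1.41 ± 0.62 in VAT that were not called (adjusted p = 0.163 and 0.157, edgeR). Between the depots Plagl1 changed by 0.11 ± 0.18 in lean and -0.13 ± 0.18 in obese mice (adjusted p = 0.766 and 0.623).

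Beside the lower Plagl1 in VAT of obese mice, 4 of 10 adipocyte markers fell there (Lipe, Adipoq, Cfd and Plin1), and their summed level was 22986 to 35171 CPM in lean and 15654 to 25897 CPM in obese VAT. All 7 macrophage markers tested rose, from a summed 2197 to 2889 CPM in lean to 4732 to 7854 CPM in obese VAT. Lymphocyte markers summed to 30.4 to 225.0 CPM in lean and 168.6 to 301.0 CPM in obese VAT, with Cd79a and Cd8a higher in the test. The 8 intestinal epithelium markers summed to 18.6 to 61.6 CPM and 17.3 to 22.5 CPM, with Zg16 (-4.21, adjusted p = 0.00102) and Muc2 (-1.41, 0.0235, edgeR) lower. Lean mouse 2, the highest in Plagl1, was also the highest of the VAT libraries in Muc2 (30.3 CPM), Zg16 (5.38 CPM), Cdh17 and Lgals4. Fabp2 (15.1 CPM), Vil1 (5.83 CPM) and Krt20 (3.19 CPM) were highest in lean mouse 4 instead, where Plagl1 stood at 42.4 CPM. Obese mouse 4, the lowest in Plagl1, was the highest in Gpnmb (1036 CPM, against 194.9 to 240.9 CPM in the other obese mice) and Cd68 (350.9 against 158.6 to 219.4 CPM), and the lowest in Lipe (109.5 against 169.5 to 196.6 CPM) and Plin1 (43.5 against 73.1 to 89.0 CPM). Lep, Cidec, Retn and Pnpla2 were also lowest in obese mouse 4 among the obese VAT libraries, and Adipoq, Fabp4, Cfd and Slc2a4 were not. Adipoq and Fabp4 were lowest in obese mouse 1, at 2703 and 7322 CPM, against 4059 and 14956 CPM in obese mouse 4. The part of these cells in the Plagl1 result was not tested. The feature most like Plagl1 was Cdo1, cysteine dioxygenase (r = 0.875 over 16 libraries), with means of 8.66 CPM in lean SAT, 4.71 in obese SAT, 8.51 in lean VAT and 3.97 in obese VAT. The next were 2 transcripts without a symbol, XR_004935492 (r = 0.862) and XR_004942129 (r = 0.848).

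**Figure D3:**
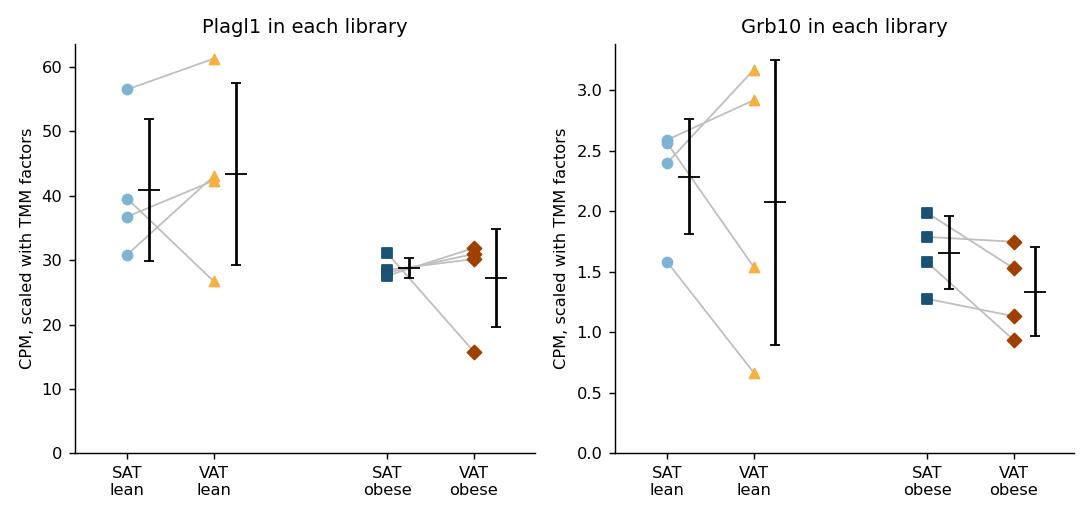
Plagl1 (left) and Grb10 (right) in each library as CPM scaled with TMM factors; each symbol is a library, grey lines join the depots of 1 mouse, and the black mark and bar give the mean and SD of 4 libraries. Plagl1 of obese mice lies between 15.8 and 31.9 CPM and of lean mice between 26.7 and 61.3 CPM, and Grb10 lies at 3.17 CPM or less throughout.

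Grb10 (chr11:11880498-11988683, minus strand of GRCm39) encodes an adaptor protein that binds the insulin and IGF1 receptors and dampens their signal, and is expressed from the mother's copy in most tissues. Its 303 counts fell on 1 of its 4 rows, NM_001370603. It stood at 1.58, 2.40, 2.59 and 2.56 CPM in SAT of lean mice, and at 1.99, 1.28, 1.58 and 1.79 CPM in SAT of obese mice. In VAT it stood at 0.668, 3.17, 2.92 and 1.54 CPM in lean mice, the first from a single count, and at 1.53, 1.13, 0.935 and 1.75 CPM in obese mice. The diet groups overlapped in both depots. The changes with the diet were -0.43 ± 0.33 in SAT (adjusted p = 0.457) and -0.86 ± 0.36 in VAT (adjusted p = 0.13), and between the depots -0.09 ± 0.36 in lean and -0.31 ± 0.36 in obese mice (adjusted p = 0.935 and 0.551, edgeR). Within the mice, Grb10 was lower in VAT than in SAT in 4 of 4 obese mice, by -0.76 to -0.03 (log2 CPM, VAT minus SAT), and in 2 of 4 lean mice. The difference of the diet responses was -0.22 ± 0.51 (adjusted p = 0.889). None of the alternative fits called Grb10 in any comparison. Its most alike features were Ralgapa2 (r = 0.839), Dxo (r = 0.838) and A930007A09Rik (r = 0.827), the first also at low counts, with 0.655 to 3.24 CPM over the libraries.

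**Figure D4:**
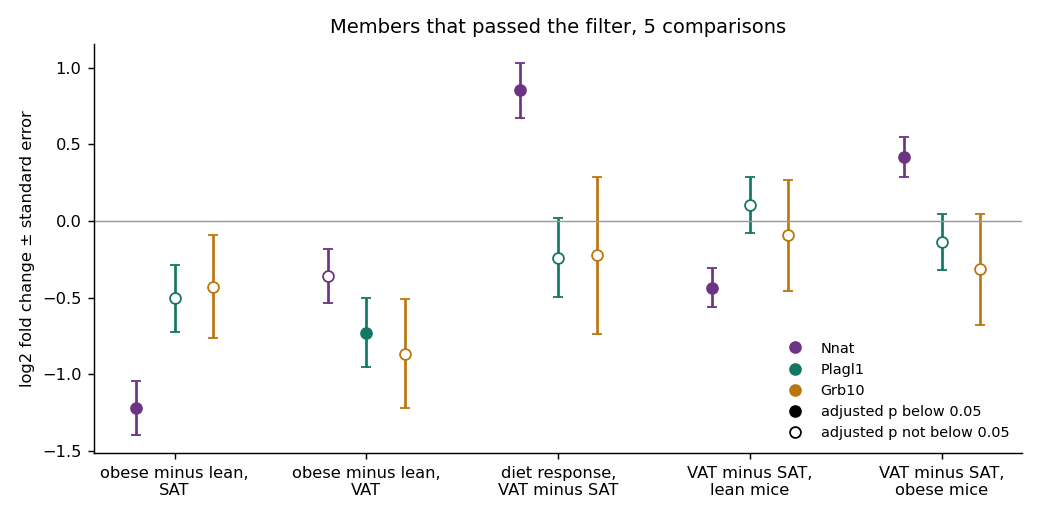
Log2 fold change and standard error of Nnat, Plagl1 and Grb10 (counts summed per gene) in 5 comparisons on the x axis; filled symbols have an adjusted p below 0.05. Nnat is filled in 4 comparisons, at -1.22, 0.85, -0.44 and 0.42, Plagl1 in 1, at -0.73, and Grb10 in none.

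All 3 genes tested had lower mean levels in obese than in lean mice in both depots, with 1 call in each depot, Nnat in SAT and Plagl1 in VAT. Between the depots, Nnat was called in both diets and Plagl1 and Grb10 in neither. No difference between the 3 genes was tested. No change of a member went beyond 1.5 on the log2 scale, the limit of the study.

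Of 44 other imprinted genes listed for comparison, 43 are in the table, 6 are at 0 in all libraries and 25 passed the filter. Of 16 such genes that have a single row, 11 passed, and of 27 with more rows 14 passed. Between the depots of lean mice 8 of the 25 were higher in VAT and 3 lower, and in obese mice 5 were higher and 4 lower, where 15.9% of all features were called in lean and 31.3% in obese mice. The median change of the list was -0.03 in lean mice and 0.00 in obese mice, against 0.02 and 0.02 over all features.

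A group of 4 genes that differed between the depots lies with Dlk1 in 1 imprinted cluster, where they are expressed from the mother's copy (Meg3, Rian and Mirg) or the father's (Rtl1). Meg3, a long noncoding RNA, stood at 19.2, 22.7, 8.82 and 30.6 CPM in SAT and at 71.4, 62.1, 49.1 and 61.9 CPM in VAT of lean mice. In obese mice it stood at 29.5, 26.4, 25.1 and 19.4 CPM in SAT and at 74.8, 66.1, 59.2 and 50.4 CPM in VAT. In each diet every VAT library lay above every SAT library, by 1.69 ± 0.17 in lean mice (log2, adjusted p = 4.49e-07) and by 1.32 ± 0.16 in obese mice (3.39e-06, edgeR). Rian, the next RNA of the cluster, was higher in VAT by 1.60 ± 0.16 and 1.47 ± 0.15 (adjusted p = 3.90e-07 and 3.80e-07). Neither changed with the diet in a test, with 0.33 and 0.31 in SAT and 0.04 and 0.17 in VAT (adjusted p of 0.380 or more). Dlk1 itself, with no count on 8 rows, cannot be set beside them.

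Other imprinted genes were higher in SAT. Klf14, a transcription factor expressed from the mother's copy and known for variants linked to fat distribution, had means of 56.9 CPM in lean SAT and 17.7 CPM in lean VAT (-1.57 ± 0.17, VAT against SAT, adjusted p = 7.76e-07), and of 87.9 and 34.4 CPM in obese mice (-1.38 ± 0.16, 1.21e-06, edgeR). It rose with the diet in both depots, by 0.63 ± 0.21 in SAT (adjusted p = 0.0497) and 0.96 ± 0.22 in VAT (0.00609). Usp29 and Zim1 are neighbours of Peg3 in its imprinted cluster. Usp29 had means of 2.21 CPM in lean SAT, 6.76 in obese SAT, 0.344 in lean VAT and 0.852 in obese VAT, and rose with the diet in SAT by 1.70 ± 0.43 (adjusted p = 0.0130, edgeR). Zim1 stood at 7.25, 14.9, 1.34 and 4.92 CPM in lean SAT and at 10.1, 15.2, 30.9 and 23.5 CPM in obese SAT, which overlap, with a change of 1.5 ± 0.48 (adjusted p = 0.044). Rasgrf1, an exchange factor for Ras expressed from the father's copy, was higher in VAT by 3.43 ± 0.48 in lean and 4.02 ± 0.45 in obese mice (adjusted p = 2.30e-05 and 9.47e-07), from SAT levels below 2 CPM. With the diet, 4 of the 25 genes rose (Klf14, Usp29, Zim1 and Igf2r) and 1 fell (Mkrn3, by 1.12) in SAT, and 1 rose in VAT, where 11.6% and 12.2% of all features were called. For the difference of the diet responses edgeR called 0 of the 25, with 2 at an unadjusted p below 0.05; the list was not run in DESeq2.

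**Figure D5:**
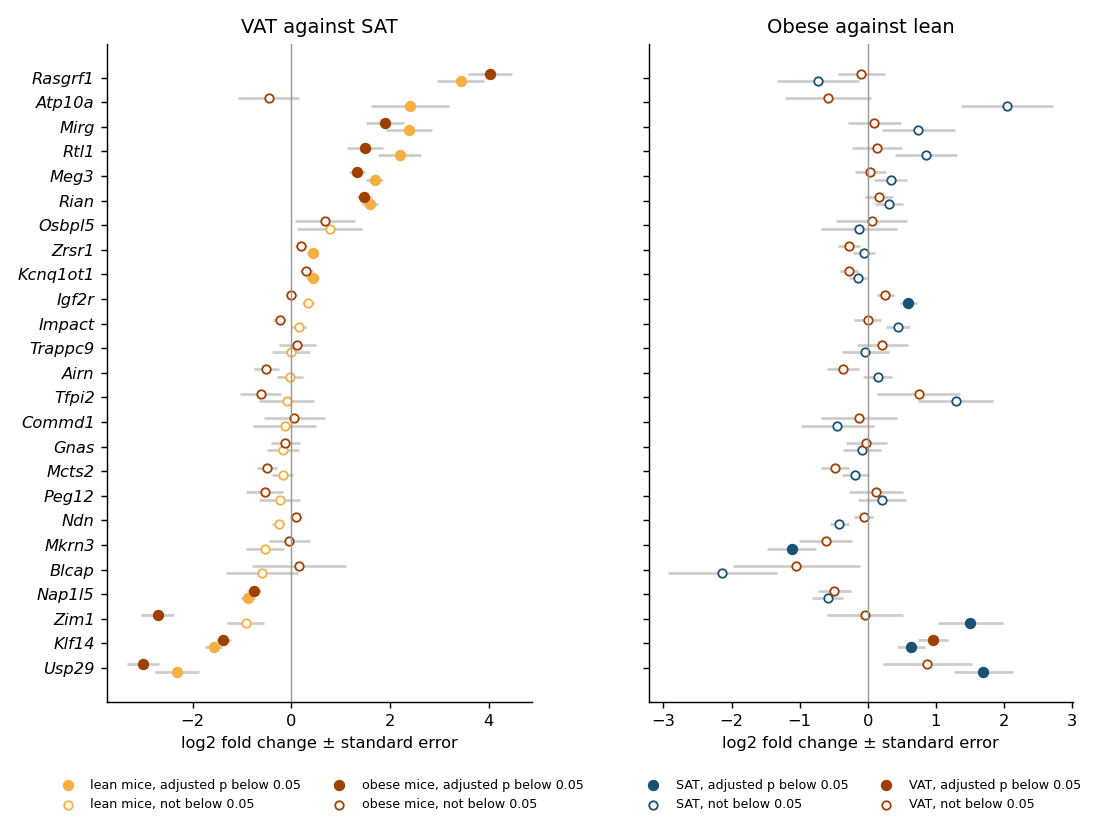
Log2 fold change and standard error of 25 other imprinted genes that passed the filter, VAT against SAT by diet (left) and obese against lean by depot (right); filled symbols have an adjusted p below 0.05. Rasgrf1, Mirg, Rtl1, Meg3 and Rian lie to the right in both diets, Usp29, Klf14 and Nap1l5 to the left, and few genes are filled for the diet.

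Genes that share a pathway, a protein family or a reported setting with a member were read from lists chosen for their roles. Whether the members act on these genes was not tested. Of 21 genes of the IGF axis, where Igf2 is a ligand and Grb10 an inhibitor, 13 were tested. In SAT 3 were higher in obese mice (Igf2r, Irs2 and Stc1) and 3 lower (Irs1, Igfbp5 and Stc2), and in VAT 0 were higher and 2 lower (Irs1 and Igfbp5), against 11.6% of all features called in SAT and 12.2% in VAT. Irs1, the docking protein of the insulin and IGF1 receptors, fell from 302.9 ± 51.6 to 91.5 ± 13.1 CPM in SAT and from 199.3 ± 37.1 to 66.7 ± 13.5 CPM in VAT (SD, n = 4), by -1.73 ± 0.16 and -1.58 ± 0.17 on the log2 scale (adjusted p = 6.16e-07 and 1.94e-06, edgeR). Igf2r, the receptor that removes IGF2 and is itself expressed from the mother's copy, stood at 300.2, 325.9, 296.4 and 223.5 CPM in lean SAT and at 435.0, 427.2, 492.5 and 374.6 CPM in obese SAT. These groups did not overlap, with a rise of 0.59 ± 0.12 (adjusted p = 0.00301, edgeR). In VAT its change was 0.25 ± 0.12 (adjusted p = 0.204).

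Cdkn2c, which encodes the kinase inhibitor p18, fell in SAT by 1.19 on the log2 scale and in VAT by 1.07 (adjusted p = 0.000169 and 0.000544, edgeR). It was the 1 gene called of 5 CDK inhibitors tested in each depot, where 11.6% of all features were called in SAT and 12.2% in VAT. Of 11 Notch receptors and targets tested, the pathway that Dlk1 is known to touch, 3 were higher in obese SAT (Rbpj, Notch2 and Hey1) and 0 lower, where 774 of all 12185 features were higher and 640 lower, and in VAT edgeR called 0, with 3 at an unadjusted p below 0.05 (other tools were not run on the list). Of 5 genes known beside Mest for varying with fat expansion (Sfrp5, Lep, Npr3, Bmp3 and Cav1), 1 was lower in obese SAT and 2 in obese VAT. Over all 12185 features, 640 were lower in obese SAT and 643 in obese VAT. Sfrp5, an inhibitor of Wnt signalling, fell in SAT by 0.60 (adjusted p = 0.0189), from 553.3 ± 109.4 to 364.4 ± 35.0 CPM. Its means in VAT were 155.5 CPM in lean and 211.2 CPM in obese mice, and the difference of its diet responses was 1.03 ± 0.18 (adjusted p = 0.00242, edgeR with the mouse as a block). In this list 4 of 5 genes were lower in VAT than in SAT of lean mice and 5 of 5 in obese mice, where 880 and 1834 of all 12185 features were lower.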

How the data were processed

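Poly(A) RNA of 16 fat samples from 8 mice was sequenced by the authors in directional libraries, and samples were grouped by depot and diet from the labels. The submitters' processing notes list FastQC 0.11.9, Trim Galore 0.6.6 (the study's methods give 0.11.9 for it), HISAT2 2.2.0 (build GRCm39, RefSeq annotation) and HTSeq 0.13.5. The authors deposited raw counts per transcript and, beside them, CPM values, which equal the counts scaled to each column total and carry no TMM factor. All 32 value columns were matched to a sample. The edgeR 3.34.0 tests of the authors were not used. Which strand setting was used, and how reads shared by transcripts were counted, is not given in the sources used here.

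Symbols were matched by RefSeq identifier (82.0% of rows, with 98.9% of the counts), and gene positions were taken from GENCODE M39 (GRCm39). Counts were tested per row and summed per gene with edgeR 4.0.16 in R 4.3.3 (TMM factors, CPM above 1 in at least 3 of 16 libraries, quasi-likelihood F-test with legacy=TRUE, Benjamini-Hochberg adjustment over all 13288 rows or 12185 gene sums, called at an adjusted p below 0.05). All 16 libraries were fitted together. Comparisons between depots held the mouse as a block, since each mouse gave both depots. The deviations of the 2 depots of a mouse from their group means correlated at -0.00144 to 0.175 (8 pairs), and those of different mice at -0.155 to 0.117 (24 pairs). No pair of libraries was a copy of another (lowest chi-square per degree of freedom 7.98). Replicates are separate mice.

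The members and gene lists were chosen with earlier results of these data known. Values are given for all members, for up to 4 called genes with the smallest adjusted p per list and comparison, and for the 3 features most correlated with a tested member (log2 CPM, prior count 2). Nap1l5, Mirg, Rtl1, Stc1 and Stc2, and Klf14 and Meg3 where they are not among those 4, lie outside this rule and were chosen after their values were seen. Alternatives were RLE factors, no filter, filterByExpr, DESeq2 1.42.0, limma 3.58.1 (voom, mouse as random effect), fits of 1 depot, blocks added or removed and each mouse left out. Fits without TMM factors and without the 2 shallowest VAT libraries were added after seeing the data. Promoter windows are from RefSeq (GRCm38.p6). Tables and figures were made in Python 3.11.15 (pandas 2.3.3, matplotlib 3.10.9).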

Additional observations from a re-analysis of the deposited data

Results flagged for a closer look

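Among 12 groups of 4 libraries (Nnat, Plagl1 and Grb10 in each of 4 groups), 1 library stood apart from its group by Dixon's 95% limit: Plagl1 in VAT of obese mouse 4, at 15.8 CPM against 30.2 to 31.9 CPM in the other 3 mice. Chance marks about 1 group in 20. The same library stood at 1036 CPM for the macrophage marker Gpnmb, against 194.9 to 240.9 CPM in the other 3, and at 109.5 CPM for the adipocyte marker Lipe, against 169.5 to 196.6 CPM. For the adipocyte markers Adipoq (4059 CPM) and Fabp4 (14956 CPM) it lay within the range of the other 3 mice (2703 to 5084 and 7322 to 16179 CPM). The part of macrophages and adipocytes in its Plagl1 level was not tested. Without that mouse the diet change of Plagl1 in VAT was -0.51 and was not called (adjusted p = 0.193, edgeR).

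The response of Nnat to the diet differed between the depots. Obese minus lean was -1.22 in SAT and -0.36 in VAT, and the difference, VAT minus SAT, was 0.852 on the log2 scale (adjusted p = 0.0129, edgeR with the mouse as a block). VAT was lower than SAT in 4 of 4 lean mice and higher in 4 of 4 obese mice.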

How the results depend on the processing

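Counts of members called (1 of 4 rows and 1 of 3 genes in each comparison) moved as follows. Without TMM factors 2 members were called in SAT for rows and for gene sums, and 0 between the depots of lean mice. With the 8 libraries of VAT fitted alone 0 were called there. With no replicate block for the mouse 0 were called in the 3 comparisons that use both depots, rows and gene sums alike. With no filter on low counts 0 were called between the depots of obese mice, and 0 gene sums in lean mice, and without the 2 shallowest VAT libraries 0 gene sums in obese mice. With each mouse left out in turn the counts ranged from 0 to 1 for VAT and for both comparisons of the depots and stayed at 1 for SAT and for the difference of the diet responses. With the replicate number as a replicate block the Nnat change was -1.24 in SAT (adjusted p = 3.10e-05) and the Plagl1 change -0.72 in VAT (0.0219), and no member's call changed. With no replicate block for the mouse the Nnat change was -0.43 between the lean depots (adjusted p = 0.105), 0.43 between the obese depots (0.0677) and 0.86 for the difference of the diet responses (0.0913).

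Signs turned for values that were not called. Without TMM factors the change between the depots of obese mice was 0.23 for Plagl1 and 0.0512 for Grb10, and Grb10 gave 0.0216 between the lean depots and 0.0297 for the difference of the diet responses. Grb10 between the lean depots was also 0.108 with limma voom, 0.0874 with no replicate block and 0.0204 without the 2 shallowest VAT libraries. With each mouse left out in turn, Grb10 ranged from -0.349 to 0.101 between the lean depots and from -0.383 to 0.0664 for the difference, and Plagl1 from -0.0451 to 0.267 between the lean depots, from -0.231 to 0.173 between the obese depots and from -0.401 to 0.0723 for the difference.

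Over all features, the difference of the diet responses was called for 288 rows and 301 gene sums, for 468 and 453 with DESeq2, for 128 and 139 with no replicate block and for 462 and 463 without TMM factors. With a mouse left out it was called for 134 to 403 rows and 134 to 386 gene sums, and the diet in VAT for 832 to 1639 rows against 1449. Without TMM factors, 429 gene sums were higher and 1664 lower in obese SAT, against 774 and 640 with them. In obese mice 3893 were then higher and 778 lower in VAT than in SAT, against 1984 and 1834. The cause of these shifts was not tested. On the TMM scale 3 counts stand for 2.00 CPM in the shallowest library, VAT of lean mouse 1. They stand for 1.14 CPM in VAT of obese mouse 1 and for 0.640 CPM or less in the other libraries. How far depth, or the way shared reads were counted, set the low counts of Mest, Peg3, Igf2, H19 and Grb10 was not tested.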
